A study of Mus musculus with 16 samples.

Results

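The 10 genes described here form the core of oxygen sensing by the hypoxia-inducible factors (HIF) and are measured in mouse left ventricle. They comprise the 3 HIF prolyl hydroxylases (Egln1, Egln2 and Egln3), the 3 HIF alpha subunits (Hif1a, Epas1 and Hif3a), the asparagine hydroxylase Hif1an, the ubiquitin ligase subunit Vhl, and 2 target genes, Vegfa and Ankrd37. They were taken by symbol from a count table of 53764 genes, and 10 of 10 were among the 15841 genes that passed a filter on low counts. The set was chosen by the measured level of Egln3, about 2 times as high on the high fat, high sucrose diet as on control diet without drug. That difference is given as a description and is not tested.

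Bulk poly(A) RNA of 16 left ventricles from male C57BL/6J mice was sequenced, 1 library per animal. The mice entered at 8 weeks of age and ate their diet for 4 months. A low fat control diet (CD) and a high fat, high sucrose diet (HFHS) were each fed plain or with 0.5 mg/g of ertugliflozin, a glucose-lowering drug that blocks SGLT2 in the kidney. This gave CD untreated, CD ertugliflozin, HFHS untreated and HFHS ertugliflozin groups of 4 animals each, which the submitters chose from a larger set as representative. No group carried a transgene or engineered allele that the labels name. The spread between libraries is therefore that between selected animals, and in bulk tissue fewer cells of a type and less RNA per cell cannot be told apart.

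In cells with enough oxygen, the prolyl hydroxylases hydroxylate the HIF alpha subunits, VHL then binds the hydroxylated protein, and a ubiquitin ligase marks it for degradation. When oxygen is short, the alpha subunits persist, pair with ARNT and bind DNA at short RCGTG motifs near target genes, where R stands for A or G. Egln3 is itself a known HIF target in many cells, as are Vegfa and Ankrd37. Much of this control acts on protein, which these libraries do not measure.

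Each library held 14637669 to 21452212 counts. Levels are given as CPM (counts scaled to a common library total with TMM factors, which correct for composition), and levels of different genes are compared per kilobase of merged exon (RPKM). Markers of ventricular cardiomyocytes were high in all libraries, at 65481 to 83638 CPM summed over 7 genes. Some CD untreated libraries stood apart in other markers. Summed atrial markers were 1006, 324 and 206 CPM in replicates 1, 2 and 3, against at most 178 CPM in any library of the other 3 groups. Summed valve and cartilage markers were 89.6, 247 and 203 CPM in the same replicates, against at most 72.0 CPM in those groups. Results that use CD untreated are therefore also given without replicates 2 and 3, high in valve and cartilage markers, where the value moved. That check keeps replicate 1, so it does not remove the atrial difference or all of the valve and cartilage difference.

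Egln3 (ENSMUSG00000035105, PHD3) lies on the minus strand of chromosome 12 at 54178981 to 54203860 (GRCm38), with a merged exon length of 2662 bases. The 250 bases before its RefSeq start (GRCm38.p6, chr12:54203875-54204124, minus strand) are shown because Egln3 carries the diet difference. The capitals mark the ACGTG core of the HIF motif, whose first base lies 229 bases before the start and which is the only ACGTG or GCGTG match on either strand of this window.

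Egln3: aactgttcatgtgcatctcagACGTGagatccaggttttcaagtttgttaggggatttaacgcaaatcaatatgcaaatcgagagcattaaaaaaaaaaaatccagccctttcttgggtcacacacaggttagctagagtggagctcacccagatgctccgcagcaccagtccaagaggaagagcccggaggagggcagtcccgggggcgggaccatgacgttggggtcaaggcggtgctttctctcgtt

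Among 32817 RefSeq windows of 250 bases, 38.6% held ACGTG or GCGTG on either strand and 16.6% held ACGTG, so a match is common and is a description of letters only. RefSeq promoter entries were matched for 9 of the 10 genes, giving 11 windows, of which 8 held either motif and 6 held ACGTG. For the Hif1a window and the Vegfa window with motifs, the letters just after the start were not found in a GENCODE transcript of the gene. Both windows are counted in the 8 and the 6, and the Hif1a stretch below comes from its window. Some windows, these among them, lie inside the annotated span of their gene, so not all are upstream of it. For comparison, stretches of 30 bases around ACGTG are shown for Egln1, the most abundant hydroxylase transcript here (1 match), for the match nearest the start of Hif1a (3 matches), and for both matches of the target gene Ankrd37. The capitals mark ACGTG, and each stretch is read in the direction of transcription from GRCm38.p6 at chr8:124949305-124949334 (minus strand), chr12:73907785-73907814 (plus strand), chr8:46000071-46000100 (minus strand) and chr8:45999851-45999880 (minus strand).
Egln1: gggccgtggtgtACGTGcagcgcgcgcgga
Hif1a: tggctgagagcaACGTGggctggggtgggg
Ankrd37, distal: cccagcagtACGTGcctagctcggctcgca
Ankrd37, proximal: ggctgcacatgtcagtgtttgggtACGTGa
The motif shown begins 68 bases before the start in Egln1, 70 in Hif1a, and 241 and 6 in Ankrd37. The other 2 Hif1a matches overlap on opposite strands, at 135 and 134 bases before the start.

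Across the 16 libraries Egln1 was the most abundant of the 10 transcripts per length, at 197 ± 17.2 RPKM (SD, n = 16). Vegfa (101 RPKM), Epas1 (89.9 RPKM) and Egln3 (55.8 RPKM) followed. Hif1an, Egln2 and Hif1a lay close together at 21.6, 20.2 and 19.7 RPKM, with SDs of 1.53, 1.14 and 2.81, so their order is not resolved by the spread between libraries. Vhl averaged 4.47 RPKM and Ankrd37 3.89 RPKM. Hif3a was near the limit of the measurement, at 0.129 RPKM and 8 to 37 counts per library, and none of its differences can be read closely.

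**Figure D1:**
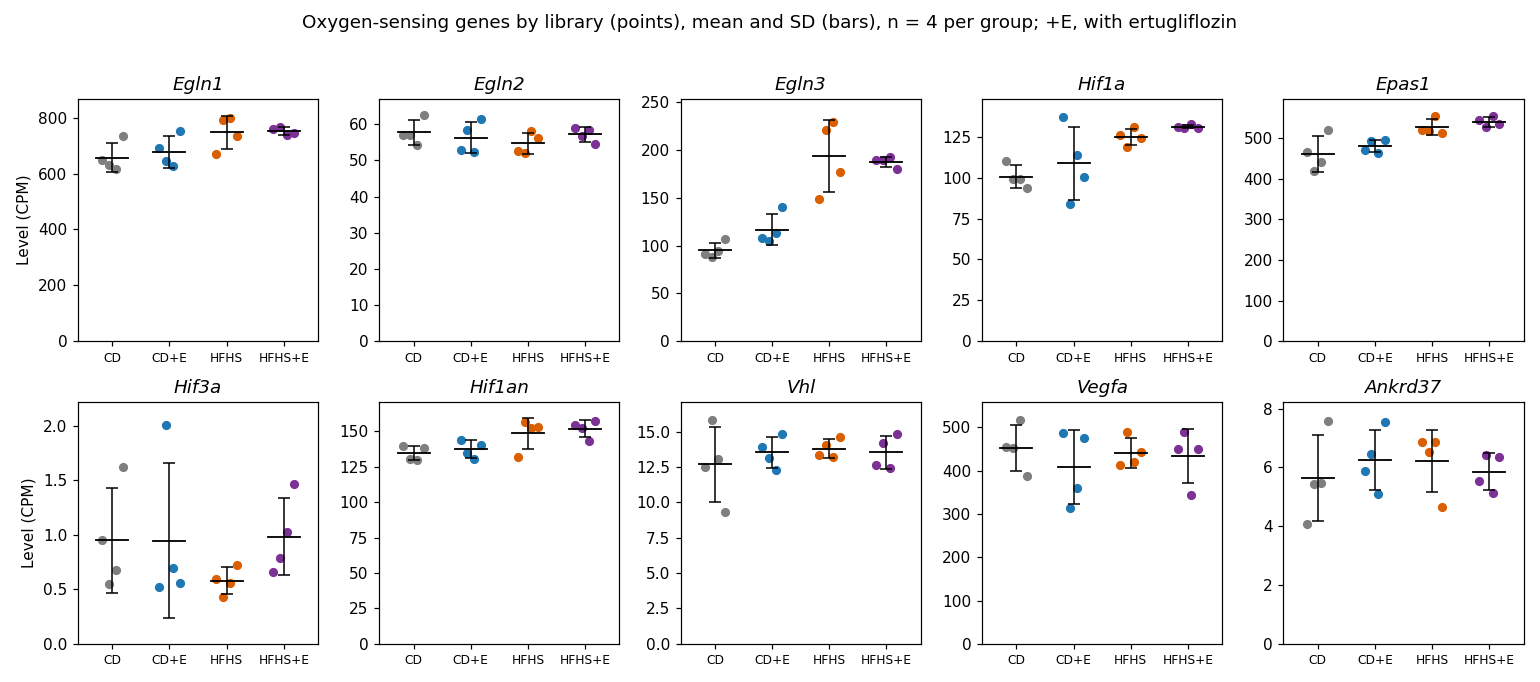
Level of each of the 10 oxygen-sensing genes in CPM (vertical axis, from 0) in every library, by group, with the mean and SD of 4 libraries as bars. The Egln3 points of both HFHS groups lie at 149 to 229 CPM, above all 8 CD libraries at 88.6 to 141 CPM.

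Egln3, the hydroxylase most readily induced by hypoxia in many cells, was at 91.2, 88.6, 94.8 and 107 CPM in the 4 CD untreated libraries. HFHS untreated libraries were at 149, 221, 229 and 177 CPM, so the lowest of them was above the highest CD library. This difference chose the gene: it was 1.03 ± 0.12 on the log2 scale (SE), and 0.97 ± 0.16 without CD untreated replicates 2 and 3. With ertugliflozin, CD libraries were at 108, 105, 113 and 141 CPM, and HFHS libraries at 189, 190, 193 and 180 CPM. The HFHS ertugliflozin libraries lay in a narrow band above all 4 CD ertugliflozin libraries.

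The treated animals are different mice from those that chose the gene, and in them Egln3 rose on HFHS. The means were 188 ± 5.29 CPM on HFHS and 117 ± 16.4 CPM on CD (SD, n = 4 each), a log2 difference of 0.69 ± 0.12 (SE; 95% interval 0.43 to 0.95; edgeR quasi-likelihood adjusted p = 0.00536), or 1.61-fold. It was called in each of the 8 runs that left out 1 library of these groups (0.64 to 0.79). Among all genes tested in this comparison 3.69% were called, 2.15% as higher, and Egln3 was the 1 member called of 10. In order of mean level the 4 groups ran from CD untreated (95.3 ± 7.91 CPM) through CD ertugliflozin and HFHS ertugliflozin to HFHS untreated (194 ± 37.8 CPM). Of these neighbours, only CD ertugliflozin and HFHS ertugliflozin did not overlap.

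Several cell type markers differed between the same treated groups. Of the 7 ventricular cardiomyocyte markers, 3 sarcomere genes were lower on HFHS: Myl2 by a log2 difference of -0.23, Tnnt2 of -0.25 and Tnni3 of -0.25 (edgeR adjusted p = 0.0403, 0.0347 and 0.0336). Myh6 and Actc1 lay near 0, at -0.04 and -0.05, and Ryr2 and Ttn above it, at 0.09 and 0.24, none of them called. The summed level of the 7 was 70439 to 81649 CPM on CD and 69292 to 75538 CPM on HFHS. Of the 6 fibroblast markers Pdgfra was higher, by 0.25 (edgeR adjusted p = 0.0414), with sums of 872 to 1288 and 1102 to 1356 CPM. Of these 6, 4 lay above 0 and 2 below, and only Pdgfra was called. In this comparison 1.53% of all genes were called lower and 2.15% higher, and 2937 of 15841 had an unadjusted p under 0.05. None of the 7 endothelial markers was called (814 to 902 and 864 to 977 CPM summed), and none of 6 macrophage markers, although all 6 lay below 0 with a median of -0.39 (228 to 305 and 200 to 230 CPM summed; 4 with an unadjusted p under 0.05). None of 5 erythroid markers was called either, and all 5 lay below 0 with a median of -0.33 (315 to 400 and 247 to 334 CPM summed; 1 with an unadjusted p under 0.05). The 3 sarcomere calls and that of Pdgfra were each lost in 6 or 7 of 8 runs that left out 1 library, while their differences stayed at -0.20 to -0.26 for Myl2, -0.21 to -0.28 for Tnnt2, -0.23 to -0.27 for Tnni3 and 0.21 to 0.31 for Pdgfra. The 5 atrial markers tested all lay below 0, with a median of -1.21 and none called. Of the 7 valve and cartilage markers tested, 5 lay above 0 and 2 below, with none called. The part of cell composition in the Egln3 difference was not tested.

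Egln1 (PHD2), the principal hydroxylase controlling HIF in most cells, was at 690, 644, 626 and 753 CPM in CD ertugliflozin and 760, 767, 739 and 745 CPM in HFHS ertugliflozin. The groups overlapped through the highest CD library. Its difference of 0.15 ± 0.07 did not pass the test (edgeR adjusted p = 0.24), and it was 0.19 ± 0.07 without drug as a description, or 0.12 ± 0.08 without CD untreated replicates 2 and 3. Egln2 (PHD1), the third hydroxylase, had group means of 54.7 to 57.7 CPM. With drug it was at 53.0, 58.4, 52.4 and 61.5 CPM on CD and 58.9, 56.7, 58.55 and 54.6 CPM on HFHS. The HFHS libraries lay within the range of the CD libraries, with a difference of 0.02 ± 0.06 and a 95% interval of -0.11 to 0.15 (edgeR adjusted p = 0.886). Its exons share 11 bases with Cyp2t4 on the opposite strand.

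Because only Egln3 was called, the makeup of hydroxylase transcripts was compared per length. Egln3 made up 16.1%, 16.5%, 18.1% and 18.6% of the summed RPKM of the 3 genes in CD ertugliflozin. In HFHS ertugliflozin it made up 23.4%, 23.4%, 24.2% and 23.0%, so each HFHS library was above each CD library. The mean share was 6.202 percentage points higher on HFHS, and the summed level was 47.7 RPKM higher (300.4 ± 4.68 against 253 ± 22.2 RPKM, SD, n = 4 each). Both differences gave p = 0.0286 in a two-sided exact permutation test, the smallest that 4 against 4 libraries allow, and 0.0286 after adjustment over the 2 tests. Both measures contain the Egln3 level itself and were compared because of its call in the same libraries. They are not separate from its difference, and their p adds nothing beyond it. Untreated libraries, as a description, held Egln3 shares of 14.96 ± 0.557% on CD and 24.1 ± 2.32% on HFHS. Egln1 remained the larger part in every library, with group means of 69.4% to 76.4%.

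**Figure D2:**
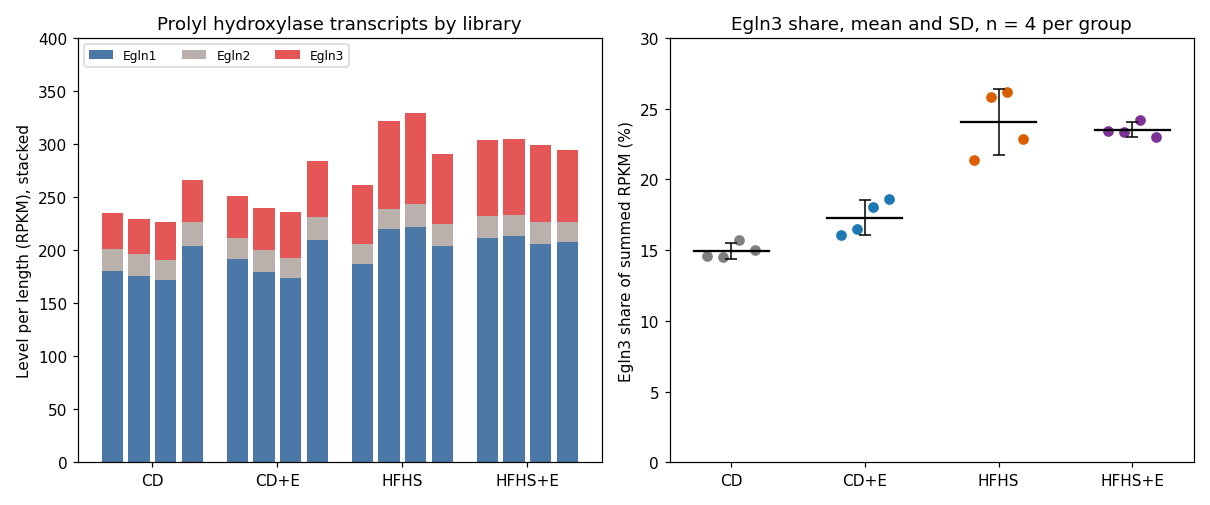
Left, RPKM of the 3 prolyl hydroxylase transcripts stacked for each of the 16 libraries, in replicate order within each group. Right, the Egln3 share of that sum in percent, with the mean and SD of 4 libraries. The HFHS shares, from 21.4% to 26.1%, lie above all CD shares, from 14.5% to 18.6%.

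Hif1a, the alpha subunit found in most cells, was at 137, 84.2, 114 and 100.5 CPM in CD ertugliflozin. In HFHS ertugliflozin it was at 131, 130, 133 and 131 CPM. The CD libraries spread over both sides of the HFHS level, with replicate 1 above all HFHS libraries. The difference of 0.27 ± 0.10 did not pass the test (edgeR adjusted p = 0.154). Without CD ertugliflozin replicate 1 it was 0.40 and passed (edgeR adjusted p = 0.0086), so 1 library decides the call. Over all alternatives its adjusted p ranged from 0.0086 to 0.312. Untreated libraries, as a description, were at 110, 99.1, 99.4 and 93.8 CPM on CD and 126, 119, 131 and 124 CPM on HFHS. Those groups did not overlap, a difference of 0.31 ± 0.10. Hif1a exons share 330 bases with an antisense gene and 148 with another gene on the same strand, and the strand setting of the counting is not known here, so its counts may include reads of these neighbours.

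Epas1, which encodes HIF-2 alpha and is known for its expression in endothelium, was at 471, 493, 464 and 494 CPM in CD ertugliflozin. HFHS ertugliflozin libraries were at 546, 526, 556 and 535 CPM. All 4 lay above the CD libraries. The difference was 0.17 ± 0.06, which did not pass the test in the fit of all 16 libraries (edgeR adjusted p = 0.104) and passed when only these 2 groups were fitted (edgeR adjusted p = 0.0383), with 0.0383 to 0.217 over all alternatives. Groups that did not overlap were common in this comparison: 13.2% of all genes in either direction and 6.79% higher on HFHS, and among the 10 members Egln3 and Epas1. Without drug the description gave 0.19 ± 0.06, and 0.09 ± 0.06 without CD untreated replicates 2 and 3. Hif3a, whose transcripts include inhibitory forms, gave 0.05 ± 0.42 with drug and -0.71 ± 0.47 without, on at most 37 counts per library. The latter was -1.17 ± 0.51 without CD untreated replicates 2 and 3, and -0.91 to -0.31 with 1 library left out.

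Hif1an (FIH), which hydroxylates an asparagine of the HIF alpha subunits and blocks coactivator binding, was at 144, 135, 130 and 141 CPM in CD ertugliflozin. It was at 155, 152, 143 and 157 CPM in HFHS ertugliflozin. The groups overlapped, and the difference of 0.14 ± 0.05 did not pass the test (edgeR adjusted p = 0.157). Vhl, the subunit that recognises hydroxylated HIF, had group means of 12.7 to 13.8 CPM. With drug it was at 13.9, 13.1, 12.3 and 14.8 CPM on CD and 12.7, 14.2, 12.4 and 14.8 CPM on HFHS, which overlap throughout. Its treated difference was -0.0027 ± 0.12 (edgeR adjusted p = 0.994). Without drug it was 0.12 ± 0.12 as a description, and 0.34 ± 0.12 without CD untreated replicates 2 and 3.

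The 2 targets among the members did not pass the test. Vegfa, the main growth factor of blood vessels, was at 488, 315, 360 and 475 CPM in CD ertugliflozin and 449.5, 490, 344 and 451 CPM in HFHS ertugliflozin. Both groups covered similar ranges, and the difference was 0.08 ± 0.14 (edgeR adjusted p = 0.802). Ankrd37, an ankyrin repeat gene known for its induction by hypoxia, was at 5.895, 6.45, 5.09 and 7.53 CPM on CD and 5.54, 6.41, 5.12 and 6.34 CPM on HFHS with drug. These also overlapped, with a difference of -0.10 ± 0.17 (edgeR adjusted p = 0.812). Its exons share 349 bases with Lrp2bp and 57 with Ufsp2 on the opposite strand, which leaves its low counts uncertain.

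With drug, 8 of 10 members lay above 0, and their median log2 difference was 0.11 beside -0.0054 for all genes. Without drug the median was 0.14 beside -0.0018. There the groups did not overlap for 2 of 10 members, Hif1a and the chosen Egln3, against 8.33% of all genes. Without CD untreated replicates 2 and 3, Egln2 moved from -0.08 to -0.13, Vegfa from -0.04 to 0.07 and Ankrd37 from 0.13 to 0.08 in that description. The without-drug numbers come from the contrast that chose the set and carry no weight. In the plot of differences Egln3 lies farthest from 0 in both diet comparisons, and its place in the one without drug follows from the choice.

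**Figure D3:**
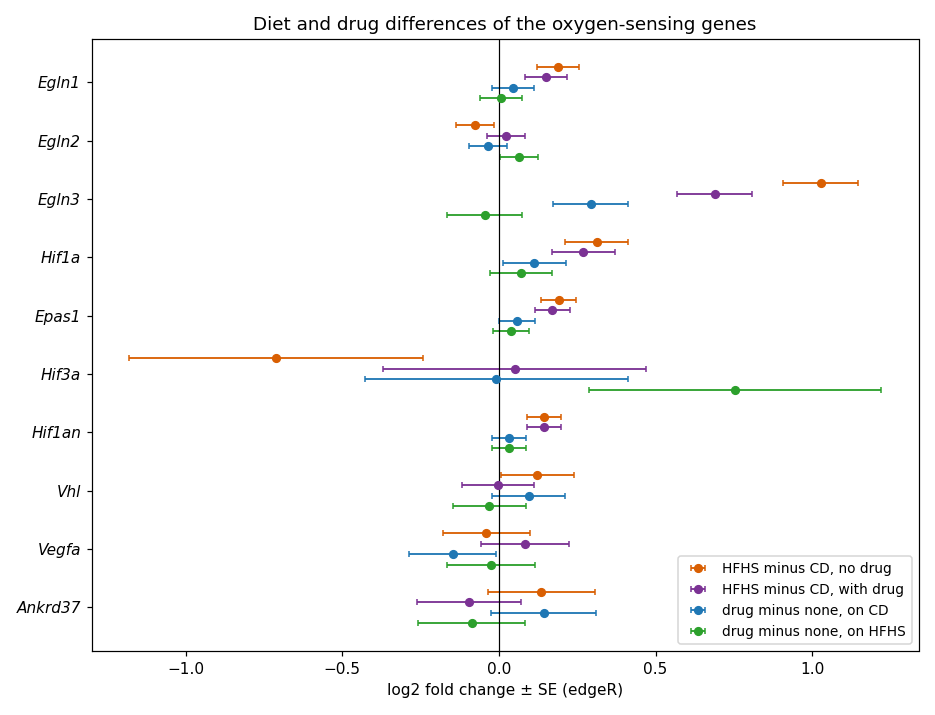
Log2 fold change with SE (horizontal axis) of each of the 10 genes in 4 comparisons: HFHS minus CD without and with ertugliflozin, and ertugliflozin minus none on each diet. Egln3 lies farthest from 0 of the 10 in both diet comparisons, at 1.03 without drug, where it was chosen, and 0.69 with drug. Hif3a has the widest error bars.

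No member was called for ertugliflozin on either diet. On CD, Egln3 was 117 CPM with and 95.3 CPM without drug, a log2 difference of 0.29 ± 0.12 whose unadjusted p of 0.0282 did not hold over all genes (edgeR adjusted p = 0.768). It was 0.24 ± 0.16 without CD untreated replicates 2 and 3. The libraries of the 2 groups overlapped at 105 to 107 CPM. Of all genes 0.0189% were called on CD, and 978 had an unadjusted p under 0.05. On HFHS, Egln3 differed by -0.05 ± 0.12 (edgeR adjusted p = 1.00), and 0% of all genes were called by edgeR (637 with an unadjusted p under 0.05). DESeq2 and limma-voom also called 0 of the 10 members in both, and of the members only Egln3 on CD had an unadjusted p under 0.05. Both drug comparisons use the untreated libraries in which Egln3 was chosen.

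Averaged over both diets, the drug difference of Egln3 was 0.12 ± 0.08, with a 95% interval of -0.06 to 0.31 (edgeR adjusted p = 0.881). The other members apart from Hif3a lay between -0.09 and 0.09, with SEs of 0.039 to 0.12. No gene was called by edgeR (0% of all genes, 882 with an unadjusted p under 0.05, none of them a member). The diet-by-drug interaction of Egln3, the drug difference on HFHS minus that on CD, was -0.34 ± 0.17 with a 95% interval of -0.71 to 0.03. Its edgeR adjusted p was 1.00 (0.0634 unadjusted). None of the 10 members was called for the interaction, against 0.0189% of all genes. The interaction and the average also use the untreated libraries in which Egln3 was chosen, so neither bears on Egln3 independently of that choice. The other members apart from Hif3a had interactions between -0.23 (Ankrd37, 95% interval -0.75 to 0.29) and 0.12 (Vegfa, 95% interval -0.31 to 0.55).

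The other genes of the pathway were described from lists of textbook members. HIF partners and subunits of the VHL ligase (Arnt, Elob, Cul2 and others) were tested for 15 of 15 genes. No gene of that list was called in any comparison by edgeR, DESeq2 or limma-voom. Between the diets with drug 2 of the 15 had an unadjusted p under 0.05, beside 2937 of all 15841 genes. The median difference was 0.013 beside -0.0054 for all genes.

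Of 47 listed HIF target genes 44 were tested, and Car9, Aldoc and Epo were below the filter. With drug, 4 were higher on HFHS and 3 lower, beside 3.69% of all genes called, and the median of the 44 was 0.018. The transferrin receptor Tfrc, which takes up iron, was at 83.0, 37.8, 70.7 and 78.1 CPM on CD and 176, 222, 188 and 157 CPM on HFHS with drug. Every HFHS library was above every CD library, a rise of 1.46 ± 0.29 (edgeR adjusted p = 0.0155). Pdk1, a kinase that inhibits pyruvate dehydrogenase, was at 329, 312, 294 and 332 CPM on CD and 388, 390, 381 and 384 CPM on HFHS. It rose by 0.28 ± 0.05 (edgeR adjusted p = 0.0065), and its groups did not overlap. The glucose transporter Slc2a1 was at 13.8, 20.4, 14.8 and 17.8 CPM on CD and 10.7, 10.6, 13.6 and 11.04 CPM on HFHS. It fell by 0.54 ± 0.14 on the log2 scale (edgeR adjusted p = 0.0401).

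The remaining calls were smaller or on lower counts. Loxl2, a collagen crosslinking enzyme, rose by 0.52 ± 0.13 and Pfkl, a phosphofructokinase subunit of glycolysis, by 0.28 ± 0.07 (edgeR adjusted p = 0.0287 and 0.0429). Higd1a, a mitochondrial protein, fell by 0.23 ± 0.05 and the glycolytic kinase Pgk1 by 0.21 ± 0.05 (edgeR adjusted p = 0.0248 and 0.036). Pgk1 has near-identical copies in the genome, so its counts are uncertain. Genes of glucose uptake and glycolysis stood on both sides of 0. Among them Gapdh and Pgam1 averaged only 9.85 and 8.58 CPM, beside 2717 CPM for Aldoa. The handling of multiply mapped reads is not known here, so their counts may be uncertain too. When 1 of the 8 libraries was left out, 2 to 5 targets were called. Tfrc, Pdk1 and Egln3 were called in 8 of 8 such runs, Loxl2 in 4, Higd1a in 3, Slc2a1 and Pgk1 in 2 and Pfkl in 1. The differences of the less often called genes kept their direction, at 0.42 to 0.60 for Loxl2, -0.19 to -0.26 for Higd1a, -0.43 to -0.63 for Slc2a1, -0.18 to -0.24 for Pgk1 and 0.25 to 0.31 for Pfkl.

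Without drug, as a description, the same 7 targets gave 1.14 for Tfrc, 0.15 for Loxl2, 0.16 for Pdk1, 0.33 for Pfkl, -0.38 for Slc2a1, -0.09 for Higd1a and -0.04 for Pgk1. Of the 44 targets only Pfkl was called there, beside 2.06% of all genes, and no target was called without CD untreated replicates 2 and 3, where Pfkl was at 0.30 ± 0.10. For the drug, edgeR called no target on CD (6 of 44 with an unadjusted p under 0.05), on HFHS (4), averaged over the diets (4) or for the interaction (2), and neither did DESeq2 or limma-voom. Of all 15841 genes, 978, 637, 882 and 676 had an unadjusted p under 0.05 in the same order.

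**Figure D4:**
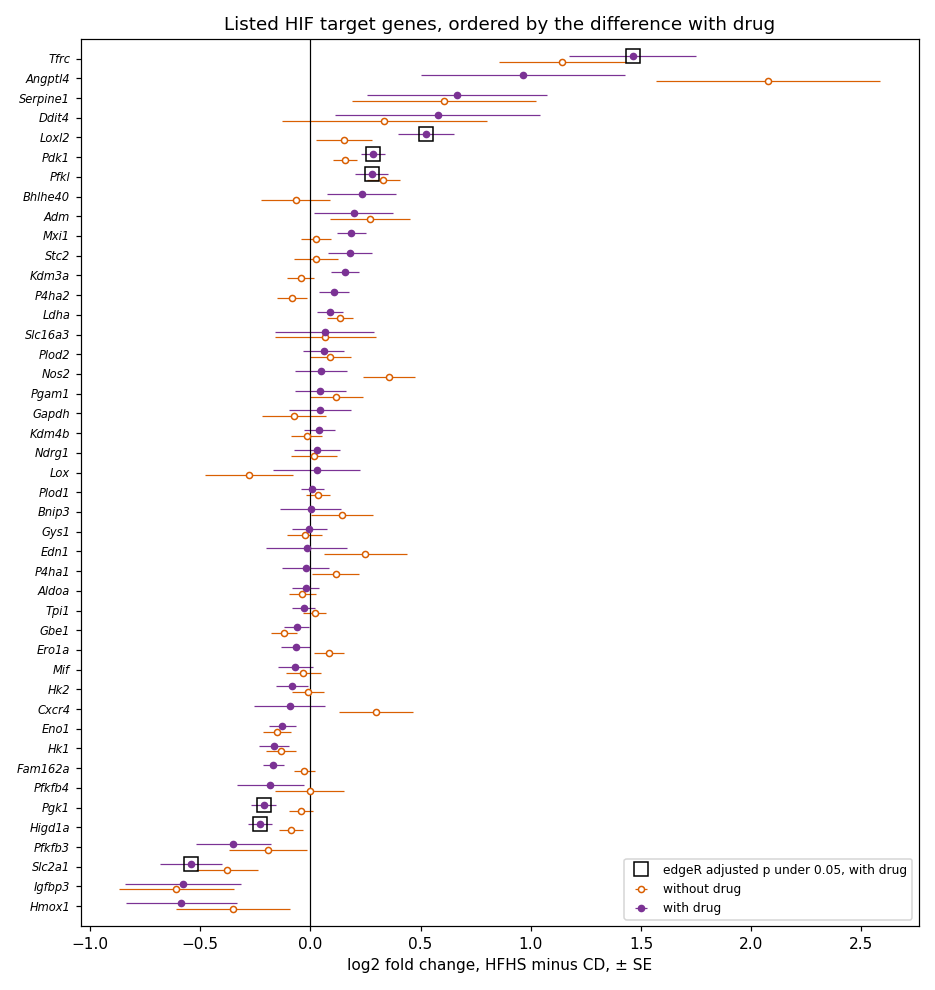
Log2 fold change, HFHS minus CD, with SE (horizontal axis) for the 44 listed HIF target genes tested, with ertugliflozin (filled) and without (open). Squares mark the 7 genes past the edgeR threshold with drug, 4 to the right of 0 and 3 to the left, among 24 targets above 0 and 20 below.

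Vegfa acts through receptors on endothelium, and 13 of 13 listed genes of the VEGF and angiopoietin system were tested. With drug edgeR, DESeq2 and limma-voom called none between the diets, with a median of 0.025. An unadjusted p under 0.05 was found for 1 of 13, beside 2937 of all 15841 genes. When CD ertugliflozin replicate 1 was left out, 1 was called, the receptor Kdr, at 0.30 ± 0.07 (edgeR adjusted p = 0.0217). Without drug, as a description that is not tested, Kdr was at 0.46 ± 0.07 and the coreceptor Nrp1 at 0.31 ± 0.08, both singled out after their values were seen. Without CD untreated replicates 2 and 3, Kdr was at 0.41 ± 0.10 and Nrp1 at 0.35 ± 0.10. The summed endothelial markers were 782 to 873 CPM in CD untreated and 861 to 1076 CPM in HFHS untreated, with a median difference over the 7 markers of 0.21. Their part in the Kdr and Nrp1 values was not tested.

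The genes whose levels over the 16 libraries were most like those of Egln3 were found by the root mean square difference of centred log2 CPM among 14202 genes of at least 1 CPM. They were Acot2, a mitochondrial acyl-CoA thioesterase, at 0.174, the butyrophilin-like gene Btnl9 at 0.175, the sodium channel gene Scn4a at 0.205, Nkain1 at 0.208 and Vwa8 at 0.209. Egln3 itself varied by 0.466 about its mean on this scale, and 4970 genes were closer to it than a flat line. Acot2 averaged 119, 125, 207 and 231 CPM in CD untreated, CD ertugliflozin, HFHS untreated and HFHS ertugliflozin. Btnl9 averaged 92.5, 104, 168 and 159 CPM in the same order, near the Egln3 levels themselves. Acot2 belongs to a family of close copies, so its counts are uncertain. None of the 5 was among the listed HIF targets. The ranking includes the untreated libraries in which Egln3 was chosen, so it is a description only.

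**Figure D5:**
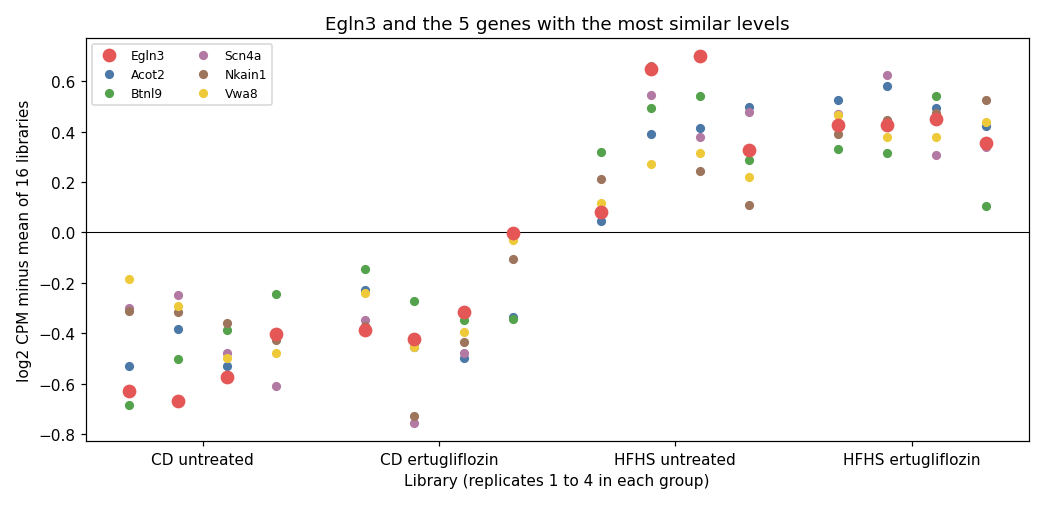
Log2 CPM minus the mean of 16 libraries (vertical axis) for Egln3 (large points) and the 5 genes most like it, in each library by group. For Egln3 all 8 CD libraries lie below 0 (the highest at -0.0040) and all 8 HFHS libraries above it, and the 5 other genes follow it to within 0.174 to 0.209 (root mean square difference).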

How the data were processed

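Bulk RNA sequencing covered the left ventricles of 16 mice, 4 per group. Libraries were poly(A)-selected and directional, per the labels' protocols. The deposited table holds whole read counts per Ensembl gene; STAR 2.6.0c, featureCounts (Subread 1.6.2), FastQC 0.11.7, DESeq2 1.22.1 and mm10 are named in the submitters' processing notes, while annotation, strand setting and handling of multiply mapped reads were not given in the sources used here. Regularized log2 values, also deposited, served as an alternative input.

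Symbols came from GENCODE M21 for 53669 of 53764 IDs, and the other 95 took 0.00852% to 0.0106% of counts. Of 2 IDs named Aldoa, the one with more counts was used. In R 4.3.3, edgeR 4.0.16 (filterByExpr, TMM, robust quasi-likelihood, 1 fit of 16 libraries) gave log2 fold changes, adjusted by Benjamini-Hochberg over 15841 genes at 0.05. SE was taken as the absolute log2 fold change over the root of F. Likeness used log2 CPM with a prior count of 2. Between libraries of one group, chi-square over its degrees of freedom was 3.19 to 15.8, so each counted as 1 replicate.

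The members and lists were chosen with earlier results of these data known. Named were all 10 members, up to 8 called genes per list in the treated diet or drug comparisons, and the 5 genes most like Egln3. Alternatives comprised scaling by RLE or upper-quartile factors, no filter or 1 CPM in 4 libraries, DESeq2 1.42.0, limma 3.58.1 (voom, and on deposited log2), a block for replicate number, only the groups compared, and left-out libraries. Applying them to members other than Egln3 in the untreated diet description was added after seeing the data. Scripts were tested on simulated data. For the treated diet comparison, edgeR recovered 86.6% of simulated 2-fold changes, 74.6% of 1.5-fold and 27.3% of 1.25-fold. A small difference that was not called is therefore not shown to be absent.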

Additional observations from a re-analysis of the deposited data

Results flagged for a closer look

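Ankrd37 in HFHS untreated replicate 4, at 4.66 CPM, lay far below the other 3 libraries of its group, at 6.51 to 6.88 CPM. Its gap was 0.857 of the group's range on the log2 scale, above Dixon's 95% critical value for 4 samples. This was 1 of 40 groups of 4 libraries examined over the 10 members, and chance alone gives about 1 in 20.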

How the results depend on the processing

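Under every alternative run, Egln3 stayed called in the treated diet comparison, at 0.47 (deposited log2 values) to 0.70 (voom) with all libraries of the groups and 0.64 to 0.79 with 1 library left out. The count of members called there was 1, except 2 when only the groups compared were fitted (Epas1 joined) and 1 to 2 over left-out libraries (Hif1a joined without CD ertugliflozin replicate 1). The counts for the drug and the interaction stayed 0.

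Uncalled members near 0 changed sign in the treated diet comparison. Vhl was 0.000170 with no filter and 0.0071 with voom. With 1 library left out, Egln2 ranged from -0.0075 to 0.068, Hif3a from -0.21 to 0.71, Vhl from -0.049 to 0.044, Vegfa from -0.024 to 0.18 and Ankrd37 from -0.18 to 0.0093. The drug difference of Egln3 on HFHS ranged from -0.15 to 0.040. The cause was not tested. Of 765 further member values in the drug comparisons and the interaction, 48 changed sign and 0 changed side of the threshold. Without the filter 5 HIF targets were called, against 7, and with voom 9.

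Same-numbered libraries are tied in the labels only by that number. Their deviations correlated at -0.24 to 0.31 (median 0.056), and 7 of 16 correlated best with their own number. Whether they shared a batch was not tested. With the replicate block, 1 member was called in the treated diet comparison, Egln3 at 0.69 (edgeR adjusted p = 0.00726), and 6 HIF targets. No other count of members changed. Depth limits Hif3a most, at no more than 37 counts per library.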

Other observations

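The coefficient of variation was lowest in HFHS ertugliflozin for 6 of the 10 members (Egln1, Egln2, Egln3, Hif1a, Epas1 and Ankrd37) and in another group for Vhl, Vegfa, Hif3a and Hif1an. For Hif1a it was 0.713% over the 4 libraries there, against 4.03% in HFHS untreated, 6.83% in CD untreated and 20.5% in CD ertugliflozin. For Egln3 it was 2.82%, against 19.5%, 8.30% and 14.02% in the same order. For Egln1 it was 1.72%, against 7.85%, 7.98% and 8.36%. In contrast Vhl was at 8.62% there and 4.78% in HFHS untreated, Vegfa at 14.5% and 7.90%, and Hif3a at 36.2% and 21.3%, while Hif1an was at 4.02% there and 3.70% in CD untreated. The differences in spread were not tested. The share of all genes with their lowest value in HFHS ertugliflozin was not counted, so the 6 of 10 cannot be read as particular to the members. Over the genes tested, chi-square over its degrees of freedom between libraries of a group was 3.74 to 6.86 in HFHS ertugliflozin. It was 6.91 to 14.3 in CD ertugliflozin, 4.91 to 15.8 in HFHS untreated and 3.19 to 12.1 in CD untreated.

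Of the 13 VEGF and angiopoietin genes, 6 lay above 0 for ertugliflozin on CD and below 0 on HFHS, 3 lay above 0 on both diets and 4 below 0 on both. On CD 9 of 13 were above 0, with a median log2 difference of 0.058, and on HFHS 10 of 13 were below 0, with a median of -0.15 beside 0.00051 for all genes. The diet-by-drug interaction was below 0 for 13 of 13, with a median of -0.19 beside -0.0039 for all genes. edgeR, DESeq2 and limma-voom called none of them for the interaction, and 4 had an unadjusted p under 0.05, beside 676 of all 15841 genes. The 7 endothelial markers were also all below 0 for the interaction, with a median of -0.13. So were all 6 macrophage markers (median -0.34) and all 5 erythroid markers (median -0.53), none of them called by edgeR. Other markers went the opposite way, also without a call. All 7 valve and cartilage markers tested lay above 0 (median 3.37, 7 with an unadjusted p under 0.05), as did all 5 atrial markers tested (median 2.57). The CD untreated libraries high in valve and atrial markers enter the interaction. The part of these markers in the VEGF values was not tested. The drug comparisons on the 2 diets and the interaction share libraries.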
